A study of Mus musculus with 7 samples.

Results

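The comparison described here set Iqgap1 knockout tissue against wild-type tissue after 6 days of topical 4OHT (4-hydroxytamoxifen, a ligand that switches on proteins fused to a modified estrogen receptor). Its members were the 2 arrays titled as knockout and the 2 titled as wild type at day 6, 4 of the 7 arrays of the series, chosen by their titles alone. The other 3 arrays were of day 0 (2 knockout, 1 wild type), and of these the 2 knockout arrays entered the estimate of spread. All mice, knockout and wild type, were of a mixed C57BL/6 and 129 background, and the labels gave the same agent for all 7 samples. The labels gave no age or sex, named the material as mouse tissue, and named no 4OHT-responsive allele, although the series title concerns tumours driven by Ras and MAP kinase. They did not say whether the 2 arrays of a group came from separate mice or from pools, so a p-value here speaks of the variation among these arrays, part of which may be technical. Each value is a log2 expression value of 1 probe set for 1 gene, and 19937 genes were compared. Genes of the basal epidermis had high values on all 4 arrays, with the basal keratin gene Krt5 at 12.79 and 12.70 in knockout and 12.60 and 12.79 in wild type, and Krt14 at 12.80, 12.89, 12.69 and 12.79 in the same order.

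IQGAP1 is a large scaffold protein that binds actin and kinases of the Ras-ERK cascade (Raf, MEK and ERK), and it can bring consecutive kinases of that cascade together. In epidermis, Ras-ERK signalling drives keratinocyte division and the release of cytokines that recruit neutrophils and other leukocytes. Active ERK raises the transcription of its own inhibitors, such as the Dusp phosphatases and the Sprouty and Spred proteins, and of factors such as Fosl1 and Etv4, so the RNA of these genes is commonly read as ERK output.

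The wild-type replicates differed from each other in ways that bear on every result. Replicate 1 of wild type had Xist, transcribed from the inactive X chromosome, at 10.30, and the Y-linked gene Eif2s3y at 3.72. Replicate 2 had Xist at 3.73 and Eif2s3y at 9.41, and both knockout arrays were like replicate 2, with Xist at 4.03 and 3.97 and Eif2s3y at 9.61 and 9.27. The pattern of wild-type replicate 1 was that of a female and that of the other 3 arrays was that of males. Wild-type replicate 2 correlated with the knockout arrays at 0.990 and 0.992 across genes, and with wild-type replicate 1 at 0.979 (Pearson r across genes, which are not independent replicates). Wild-type replicate 1 therefore stood further from its own replicate than that replicate stood from knockout, and results below are given against each wild-type array.

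Iqgap1 itself was lower in both knockout arrays than in both wild-type arrays. Its values were 8.58 and 8.67 in knockout and 10.11 and 10.59 in wild type, a difference of -1.73 ± 0.20 (SE) on the log2 scale. The knockout mean lay 1.48 below wild-type replicate 1 on that scale (difference -1.48) and was -1.97 from replicate 2. Its limma adjusted p was 0.503, with a range of 0.0514 to 1 over 19 settings. It had the smallest p of all genes in 6 of these settings, the fit described here among them. The labels do not say which exons the knockout lacks, so the signal left in knockout cannot be read as residual transcript. Iqgap2, a relative found mainly in liver, had 6.81 and 7.60 in knockout and 6.88 and 7.49 in wild type. Iqgap3, a relative of dividing cells, had 6.70 and 7.85 in knockout and 6.04 and 7.17 in wild type, so the arrays of both relatives overlapped between genotypes. The knockout allele sits in a mixed background, so the nearest tested genes on the chromosome were also read. Of the 40 tested genes next to Iqgap1 (20 on each side), 7 were higher and 4 lower without overlap, 0 of them by 2-fold. Over all genes the shares without overlap were 15.9% higher and 15.7% lower. The median difference of the 40 genes was 0.04, with a range of -0.45 (Hddc3) to 0.62 (Crtc3). Crtc3, the next tested gene on one side, had 8.94 and 8.76 in knockout and 7.85 and 8.62 in wild type, and Zscan2, the next on the other, had 5.08 and 5.41 against 5.30 and 5.12.

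No gene passed the test across all genes. Limma called 0 of 19937 genes higher and 0 lower at an adjusted p under 0.05 (0% in each direction), while 1182 (5.93%) had an unadjusted p under 0.05, 702 of them higher in knockout (3.52%) and 480 lower (2.41%). Genes are therefore described below by their values and by whether the arrays of the genotypes overlap. Without overlap, 3173 genes (15.9%) were higher in both knockout arrays than in both wild-type arrays and 3137 (15.7%) were lower. Of these, 53 (0.266%) were higher and 63 (0.316%) lower by 2-fold or more in the group means.

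Most large differences were against wild-type replicate 1. The knockout mean lay 2-fold or more from wild-type replicate 1 for 913 genes (4.58%), 587 above it (2.94%) and 326 below it (1.64%), and from wild-type replicate 2 for 98 genes (0.492%), 38 above (0.191%) and 60 below (0.301%). Of the 913 genes, 34 (3.72%) were also 2-fold from replicate 2 in the same direction, which is 34.7% of the 98, and 216 lay on the other side of replicate 2. For 4676 genes (23.5%) both knockout arrays lay between the wild-type arrays, above replicate 1 for 1434 (7.19%) and below it for 3242 (16.3%). The wild-type arrays were 2-fold or more apart from each other for 745 genes (3.74%), with replicate 1 higher for 321 (1.61%) and lower for 424 (2.13%). The knockout arrays were 2-fold apart for 350 (1.76%), with replicate 1 higher for 61 (0.306%) and lower for 289 (1.45%). The plot of knockout against each wild-type array shows this as a cloud stretched along the axis of replicate 1.

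**Figure D1:**
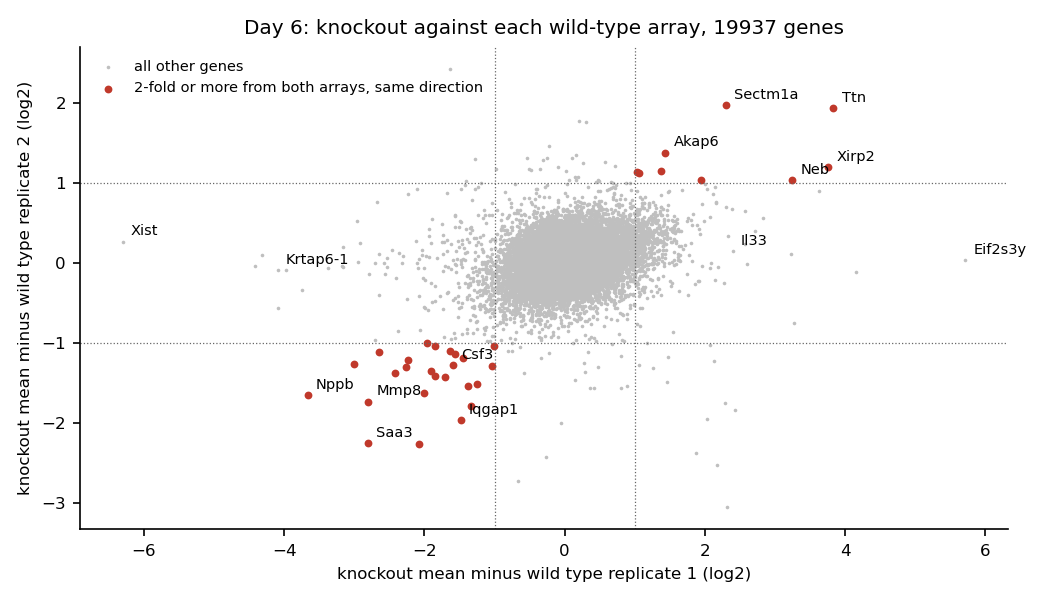
Each point is 1 of 19937 genes at day 6; the horizontal axis is the knockout mean minus wild-type replicate 1 and the vertical axis the knockout mean minus wild-type replicate 2, both in log2 units, with dotted lines at 2-fold. The 34 genes past 2-fold from both arrays in the same direction are in red, 9 at the upper right and 25 at the lower left, while the cloud spreads further along the axis of replicate 1 (913 genes past 2-fold) than along that of replicate 2 (98 genes).

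The 34 genes that were 2-fold from both wild-type arrays were 9 higher (0.0451% of genes) and 25 lower (0.125%). The 9 higher genes were Ttn, Xirp2, Neb, Sectm1a, Myh1, Akap6, Slit1, Thrb and Rsl1. Among the 25 lower genes were Iqgap1, the acute-phase gene Saa3, the cytokine genes Csf3, Cxcl3 and Il24, the neutrophil genes Mmp8 and Retnlg, the mast cell protease gene Mcpt2, the peptide genes Nppb and Npy, the serpin genes Serpina12 and Serpina9, and Tmprss2, Mmp27, Cstdc6 and Gprc5a. This set was defined by its size of difference, so its values are descriptions and no test is given for it.

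Several of the lower genes encode proteins of inflammation, described here by their values. Saa3, an acute-phase protein made by stressed epithelium and macrophages, had 9.24 and 8.08 in knockout and 11.47 and 10.92 in wild type. Its difference was -2.53 ± 0.50 (SE), and the lowest wild-type array lay 1.68 above the highest knockout array (log2). Csf3, the growth factor G-CSF that drives neutrophil production, had 6.07 and 6.20 in knockout and 7.73 and 7.42 in wild type, 2.71-fold lower in knockout. Both pairs of Csf3 values lay close together, and at day 0 all 3 arrays stood between 5.32 and 5.57. Cxcl3, a chemokine that attracts neutrophils, had 8.72 and 7.58 in knockout and 10.41 and 9.45 in wild type. Il24, a cytokine of the interleukin-10 family made by keratinocytes, had 9.50 and 9.96 in knockout and 10.77 and 11.02 in wild type. For each of these 4 genes every knockout array lay below every wild-type array. The limma adjusted p was 0.503 for Csf3 and 0.801 for Saa3, Cxcl3 and Il24.

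Other secreted and surface proteins showed the same order of arrays. Mmp8, the collagenase of neutrophil granules, had 5.95 and 6.89 in knockout and 9.22 and 8.16 in wild type. Nppb, which encodes B-type natriuretic peptide, had 5.92 and 4.92 in knockout and 9.09 and 7.08 in wild type, so its wild-type arrays were themselves further apart than its knockout arrays. Npy, the gene of neuropeptide Y, had 6.73 and 6.20 in knockout and 9.11 and 7.58 in wild type. Il1r2, the decoy receptor that binds interleukin-1 without signalling, had 8.67 and 8.89 in knockout and 10.08 and 9.65 in wild type. Mmp27, a matrix metalloproteinase, had 5.03 and 5.99 in knockout and 7.35 and 6.92 in wild type. Tmprss2, a membrane serine protease, had 4.72 and 4.84 in knockout and 6.03 and 6.30 in wild type, with both genotypes tightly paired. Serpina12 (vaspin, a protease inhibitor of skin and fat) had 4.72 and 4.70 in knockout and 6.95 and 5.93 in wild type, and the related Serpina9 had 6.20 and 5.93 against 7.63 and 7.21. Cstdc6, a stefin-type cysteine protease inhibitor, had 7.71 and 6.72 in knockout and 9.29 and 9.48 in wild type. Near-identical copies of this gene exist, so its value may include their signal. At day 0 knockout minus the single wild-type array was -2.10 for Npy, -2.35 for Serpina9 and -2.90 for Tmprss2. For Mmp8, Nppb, Il1r2, Mmp27, Serpina12 and Cstdc6 it was positive, from 0.19 (Nppb) to 1.28 (Serpina12).

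**Figure D2:**
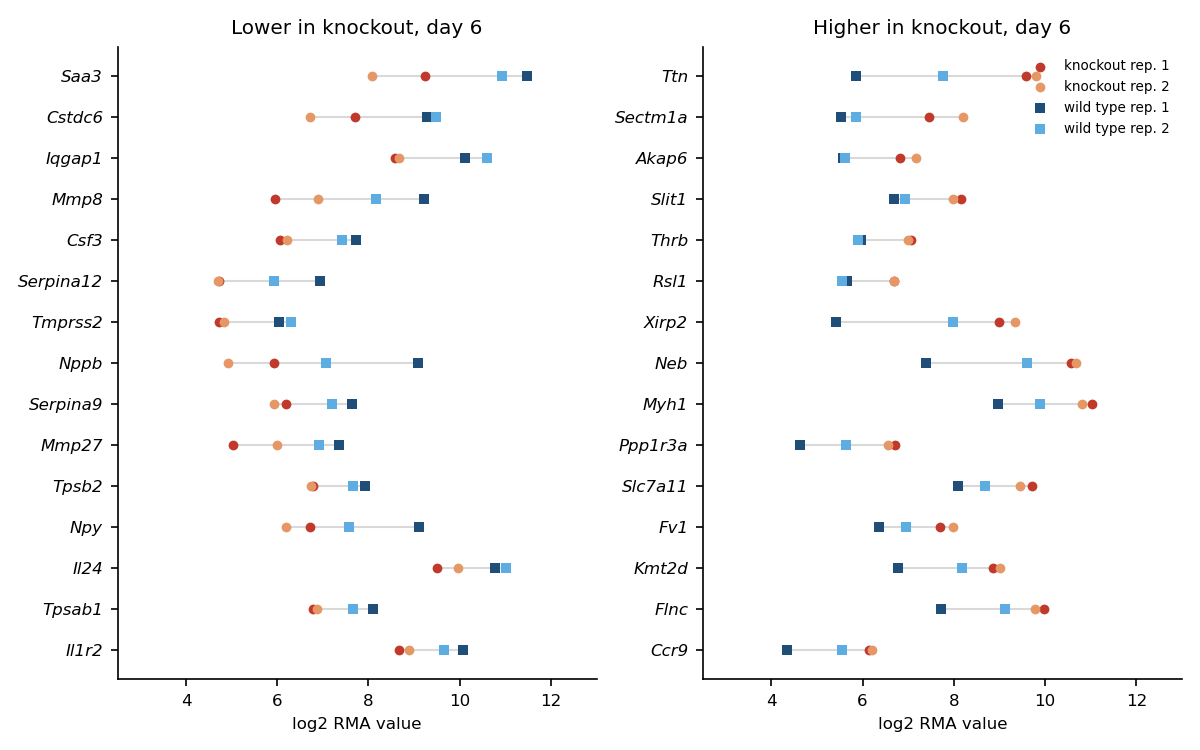
Log2 RMA values of the 15 lower and 15 higher genes with the largest gap between the genotypes at day 6, with circles for the 2 knockout arrays and squares for the 2 wild-type arrays; a grey line spans the 4 values. For Csf3, Tpsb2, Thrb and Rsl1 each genotype's arrays sit close together, while for Ttn, Xirp2 and Neb wild-type replicate 1 sits far below replicate 2.

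Mast cell genes were lower in knockout as a group, against both wild-type arrays alike. Mast cells are tissue-resident immune cells that store tryptases, chymases and carboxypeptidase in granules. Of 15 measured mast cell genes, 11 were lower in both knockout arrays than in both wild-type arrays and 1 (Gata2) was higher, against 15.7% lower and 15.9% higher over all genes; 0 passed the adjusted threshold. The median difference was -0.53, beside 0.00080 over all genes, and it was -0.40 against wild-type replicate 1 and -0.60 against replicate 2. Both knockout arrays lay below replicate 1 for 12 of the 15 and below replicate 2 for 12 of the 15, where the shares over all genes were 44.8% and 26.4%. In whole tissue, fewer mast cells and less RNA per mast cell cannot be told apart. An earlier analysis of these data had already singled out this list, so its count here is not independent evidence.

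The largest differences were those of granule protease genes. The tryptase gene Tpsb2 had 6.78 and 6.75 in knockout and 7.92 and 7.66 in wild type, a difference of -1.02 ± 0.16 (SE). The tryptase gene Tpsab1 had 6.79 and 6.88 in knockout and 8.09 and 7.66 in wild type. These tryptase genes are close relatives and may share probes. Mcpt4, a chymase, had 7.13 and 6.96 in knockout and 7.97 and 7.80 in wild type. Cpa3, the mast cell carboxypeptidase, had 8.29 and 8.41 in knockout and 9.04 and 9.22 in wild type. The chymase gene Cma1 had 5.37 and 5.42 against 5.87 and 5.98, and Fcer1a, the IgE-binding chain of the high-affinity receptor, had 4.99 and 4.45 against 5.57 and 5.38. In all 6 genes the knockout arrays lay below both wild-type arrays. Mcpt2, a protease of mucosal-type mast cells, had 3.47 and 3.43 in knockout and 4.79 and 5.24 in wild type. The Mcpt2 values of knockout lay below 3.50, the lowest value that Xist, Uty, Kdm5d or Eif2s3y had on arrays without their signal (highest 4.25), so its fold has no exact size.

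Other mast cell genes lay nearer together. Kit, the receptor for stem cell factor, had 6.15 and 6.05 in knockout and 6.18 and 6.34 in wild type, which counts as lower without overlap by a difference of -0.16. Mcpt1, also among the 11, had 3.60 to 4.07 on the 4 arrays and so was at the level of absent signal. Hdc, which makes histamine, had 7.42 and 8.77 in knockout and 8.20 and 8.35 in wild type, and Hpgds, a prostaglandin synthase also made by other immune cells, had 10.14 and 10.09 against 9.64 and 10.17, so both overlapped. Gata2, a transcription factor of mast cells and of other lineages, had 6.66 and 6.72 in knockout and 6.53 and 6.59 in wild type. At day 0 the median difference of the list, knockout minus the single wild-type array, was 0.084. The knockout difference at day 6 differed from that at day 0 for 619 of all genes (3.10%) at a limma adjusted p under 0.05, a test that rests on that single array, and the tryptase gene Tpsb2 was among them.

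The promoters of mast cell genes are shown because most of these members were lower together and because GATA factors are known regulators of mast cell genes. The motif searched was GATAA on either strand (TTATC when read on the gene's strand) in the 250 bases before the start of each gene, from RefSeq on GRCm38.p6. Of the 12 measured members with a promoter in that table, 7 held a match, or 58.3%, against 19.7% of the 15613 tested genes with a promoter there and 23.0% of all 27025 promoters. Of the 8 with a promoter whose knockout arrays lay below both wild-type arrays, 6 held a match. Mcpt1 was among the 6, although its values were at the level of absent signal. Its promoter is nearly the same as that of Mcpt4 around the match, so these matches are not separate observations. Mcpt2, Tpsab1 and Tpsb2 had no promoter in that table. The lower members Kit and Mrgprb1 held no match, while Ms4a2, whose arrays overlapped, held 3. A match is a description of these letters and not a binding site. The 4 sequences below are of lower members that held a match and whose values are given above. They are written 5′ to 3′ along the gene's strand, with each match in capitals.
Cpa3, chr3:20242182-20242431, minus strand: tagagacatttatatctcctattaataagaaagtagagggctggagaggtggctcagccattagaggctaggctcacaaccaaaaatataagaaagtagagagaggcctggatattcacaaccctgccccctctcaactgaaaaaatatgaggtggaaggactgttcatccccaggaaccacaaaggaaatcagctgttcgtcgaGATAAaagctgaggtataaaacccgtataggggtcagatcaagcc
Mcpt4, chr14:56062311-56062560, minus strand: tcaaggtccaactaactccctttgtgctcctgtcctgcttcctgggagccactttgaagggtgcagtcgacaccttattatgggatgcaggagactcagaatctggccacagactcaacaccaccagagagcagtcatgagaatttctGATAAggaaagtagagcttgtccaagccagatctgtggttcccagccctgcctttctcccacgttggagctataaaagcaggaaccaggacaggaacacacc
Cma1, chr14:55944676-55944925, minus strand: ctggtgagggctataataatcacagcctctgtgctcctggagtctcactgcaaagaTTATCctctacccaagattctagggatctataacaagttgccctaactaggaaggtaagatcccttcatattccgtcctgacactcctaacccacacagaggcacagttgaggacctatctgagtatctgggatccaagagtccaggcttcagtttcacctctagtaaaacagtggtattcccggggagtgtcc
Fcer1a, chr1:173227230-173227479, minus strand: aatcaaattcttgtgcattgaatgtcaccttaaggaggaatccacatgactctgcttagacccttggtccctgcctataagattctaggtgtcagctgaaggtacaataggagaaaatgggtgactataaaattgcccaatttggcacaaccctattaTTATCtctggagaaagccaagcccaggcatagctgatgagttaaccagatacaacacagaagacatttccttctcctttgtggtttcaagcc
The match lay 45 bases before the start in Cpa3 (-45), at -102 in Mcpt4, at -194 in Cma1 and at -92 in Fcer1a, counted to the first base of the match.

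Among 31 inflammatory cytokine and chemokine genes, 11 were lower in knockout without overlap and 1 (Il33) was higher, against 15.7% and 15.9% over all genes, and 0 passed the adjusted threshold. The median difference was -0.25, and it was -0.39 against wild-type replicate 1 and -0.09 against replicate 2. Besides Csf3, Cxcl3 and Il24, the lower genes included Cxcl1, a neutrophil chemokine, with 7.90 and 7.61 in knockout and 9.77 and 8.31 in wild type. Ppbp, another chemokine that acts on neutrophils, had 5.34 and 5.91 against 8.0 and 6.48. Il23a, the specific subunit of interleukin-23, had 6.31 and 6.48 against 6.89 and 7.11, and the monocyte chemokine Ccl8 had 9.11 and 9.90 against 10.53 and 10.31. For Cxcl1 and Ppbp wild-type replicate 1 was far above replicate 2, whereas for Il23a, Ccl8 and Csf3 the wild-type arrays were within 0.31 of each other. Il1a, an alarm cytokine stored in keratinocytes, had 10.03 and 9.84 against 11.12 and 10.34. Not every inflammatory gene was lower: Il1b had 8.59 and 10.25 in knockout and 9.74 and 8.73 in wild type, and Tnf had 7.14 and 8.10 against 7.91 and 6.80, so both overlapped. Il33, a nuclear alarm cytokine of keratinocytes, had 10.96 and 11.10 in knockout and 8.63 and 10.88 in wild type, a difference that lay almost wholly against replicate 1.

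**Figure D3:**
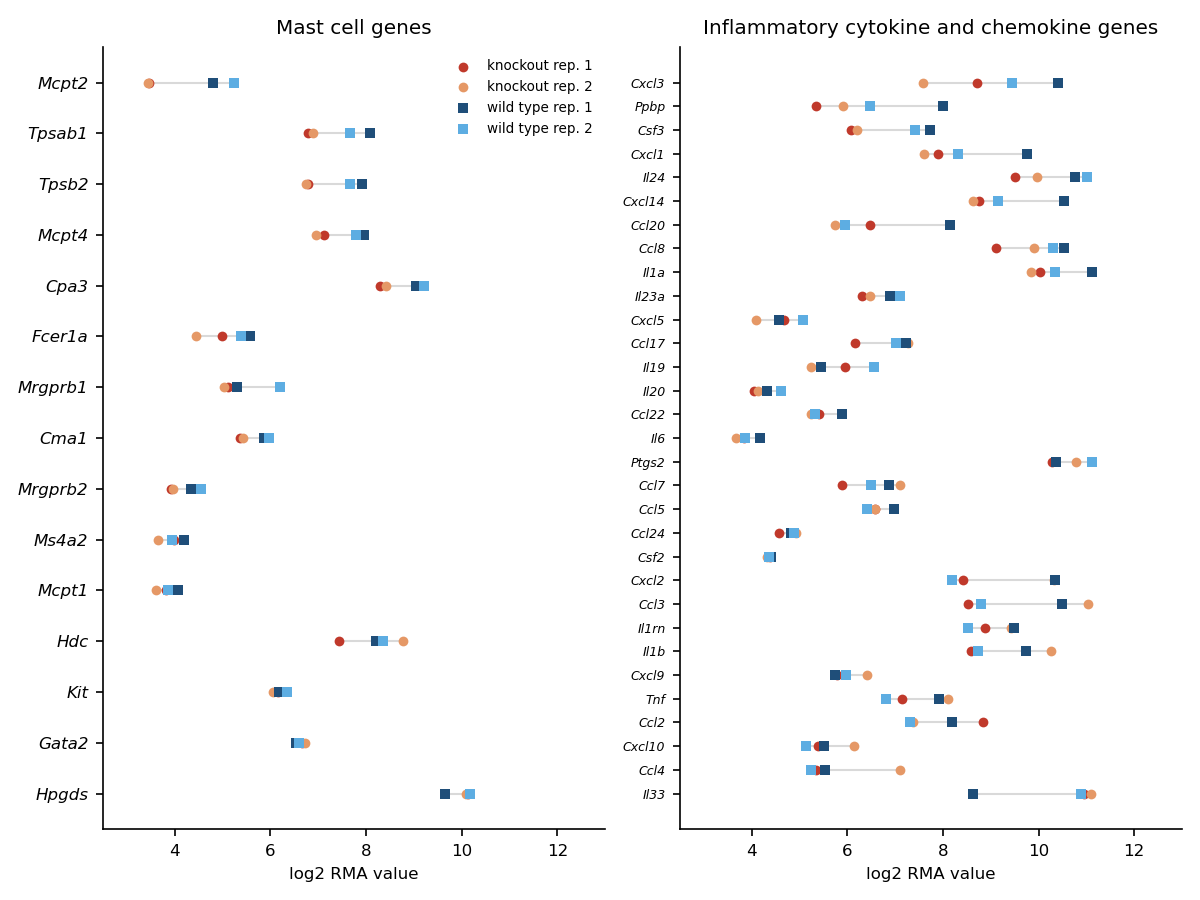
Log2 RMA values at day 6 of the 15 measured mast cell genes (left) and 31 inflammatory cytokine and chemokine genes (right), ordered by knockout minus wild type, with circles for knockout and squares for wild-type arrays. From Mcpt2 to Mrgprb2 in the left panel both circles lie left of both squares, while in the right panel Il1b, Tnf and Cxcl2 have circles and squares interleaved.

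Genes of leukocytes were read beside these, and their counts against 15.9% higher and 15.7% lower over all genes. Of 14 measured neutrophil genes, 5 were lower without overlap and 0 higher, with a median difference of -0.32 (-0.57 against wild-type replicate 1 and -0.14 against replicate 2). Retnlg, a neutrophil granule gene, had 6.58 and 8.13 in knockout and 10.35 and 8.62 in wild type, and Ly6g, the gene of a neutrophil surface protein, had 4.11 and 4.95 against 5.59 and 5.10. The alarmin genes S100a8 and S100a9, which stressed keratinocytes also make, stood at 11.51 and 11.50 against 11.98 and 11.65, and at 11.72 and 11.52 against 12.14 and 11.75. The granule genes Mpo and Elane had values of 4.72 to 5.30 on all 4 arrays, and the chemokine receptor gene Cxcr2 overlapped, with 9.14 and 9.63 against 9.35 and 9.64. The mean of the neutrophil list was 6.95 and 7.51 in knockout and 8.20 and 7.48 in wild type, so it was high in wild-type replicate 1 and near the knockout level in replicate 2. Of 18 macrophage and monocyte genes 4 were lower without overlap and 0 higher (median -0.23), among them Lyz2 (lysozyme) with 11.09 and 11.44 against 11.92 and 11.62 and Ms4a7 with 6.62 and 6.90 against 7.37 and 7.24. The mean of that list was 7.95 and 8.69 in knockout and 8.49 and 8.61 in wild type, so only knockout replicate 1 lay below both wild-type arrays. Of 17 T cell genes 3 were higher and 0 lower (median 0.01), and of 15 Langerhans and dendritic cell genes 1 was higher and 2 were lower (median 0.10). The part of cell content in the lower cytokine values was not tested.

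Of 20 measured genes of the cascade from Ras to ERK, 5 were higher and 2 lower without overlap, against 15.9% and 15.7% over all genes, with a median of 0.03. Nras, 1 of the lower members, had 10.49 and 10.45 in knockout and 10.49 and 10.51 in wild type, so its arrays all but touched. Rasgrp1, an exchange factor that loads Ras with GTP, had 9.0 and 9.09 in knockout and 7.94 and 8.33 in wild type, a difference of 0.91 ± 0.18 (SE). Ksr1, another scaffold of this cascade, had 8.17 and 8.11 against 7.65 and 7.79. Pebp1, an inhibitor of Raf, had 9.09 and 9.26 against 9.80 and 9.44. Braf, with 9.47 and 9.40 in knockout, had 8.37 in wild-type replicate 1 and 9.23 in replicate 2. Map2k1 (MEK1), with 10.14 and 10.21 against 10.20 and 10.28, overlapped. The limma adjusted p was 0.801 for Rasgrp1, Ksr1, Pebp1 and Braf and 0.973 for Map2k1.

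ERK feedback inhibitors and output genes had medians a little below 0. Of 13 feedback inhibitors, 3 were higher and 4 lower without overlap (median -0.16), beside the same shares over all genes. Dusp6, the phosphatase of ERK itself, had 10.82 and 11.00 in knockout and 11.03 and 11.41 in wild type, and Dusp9 had 8.39 and 8.25 against 8.60 and 8.83. Spry1 was on the other side, with 9.32 and 9.32 against 9.05 and 9.16. Of 18 output genes, 2 were higher (Epha4 and Myc) and 7 lower without overlap, against 15.9% and 15.7% over all genes (median -0.11, and -0.08 and -0.23 against replicates 1 and 2). Phlda1 had 9.85 and 10.03 in knockout and 10.37 and 10.48 in wild type, and Fosl1, the AP-1 subunit Fra-1, had 9.71 and 9.85 against 9.91 and 10.14. Lif, a cytokine, had 5.15 and 5.0 against 5.42 and 6.02. Plaur, the urokinase receptor gene, had 7.56 and 8.25 against 8.94 and 8.39. Cyclin D1 (Ccnd1) overlapped, with 11.27 and 11.11 against 10.93 and 11.26. Differences of lower output genes were within 0.76 of 0 on the log2 scale (Plaur -0.76), and 0 genes of either list passed.

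Of 11 measured ligands and receptors of the EGF family, 6 overlapped, 3 were lower (all ligands) and 2 were higher (both receptors), against 15.7% lower and 15.9% higher over all genes. Epgn (epigen) had 9.32 and 10.02 in knockout and 11.23 and 10.61 in wild type, a difference of -1.25 ± 0.37 (SE). Btc (betacellulin) had 6.73 and 7.03 against 8.73 and 7.17, and Nrg1 (neuregulin 1) had 9.30 and 9.44 against 9.72 and 9.72. The receptor gene Egfr had 10.62 and 10.66 against 9.95 and 10.48, and Erbb3 had 10.62 and 10.70 against 9.87 and 10.44. The ligand genes Hbegf and Tgfa overlapped. Of 23 immediate-early genes, 5 were higher, 1 (Ier2) lower and 17 overlapped (median 0.11), with Fos at 9.04 and 9.43 against 9.35 and 9.39 and Egr1 at 9.89 and 9.98 against 9.98 and 9.45.

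Muscle genes were among those with the largest differences above wild type. Ttn, the gene of titin, had 9.59 and 9.79 in knockout and 5.85 and 7.76 in wild type, a difference of 2.88 ± 0.56 (SE). Neb (nebulin) had 10.58 and 10.67 against 7.38 and 9.60, Xirp2, an actin-binding protein of muscle, had 9.0 and 9.34 against 5.41 and 7.97, and the fast myosin gene Myh1 had 11.03 and 10.81 against 8.97 and 9.89. In each of these genes wild-type replicate 1 was the lowest day 6 array by a wide margin. These genes were also higher in knockout at day 0. Knockout minus the single wild-type array was then 3.30 for Ttn, 2.85 for Neb, 2.70 for Xirp2 and 2.12 for Myh1. Of 25 measured skeletal muscle genes, 12 were higher in knockout without overlap and 0 lower, against 15.9% and 15.7% over all genes, with a median of 0.34 (0.60 against replicate 1 and 0.08 against replicate 2). The mean of the list was 9.03 and 9.40 in knockout and 8.15 and 9.03 in wild type, so replicate 2 was at the level of knockout replicate 1. At day 0 the median difference of the list, knockout minus the single wild-type array, was 1.27. Members with smaller differences were Acta1 (11.83 and 12.07 against 11.35 and 11.98) and Des (11.01 and 10.92 against 10.67 and 10.76). Ttn, Neb, Xirp2 and Flnc, like Kmt2d and Dst, have very long transcripts, and transcript length was not examined here. The part of muscle under the skin and of RNA quality in these values was not tested.

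Other higher genes were not members of the skeletal muscle list. Sectm1a, which encodes a secreted and membrane protein that acts on T cells, had 7.46 and 8.20 in knockout and 5.53 and 5.86 in wild type. Akap6, an anchor of protein kinase A, had 6.82 and 7.17 against 5.56 and 5.62. Slit1, an axon guidance ligand, had 8.16 and 7.99 against 6.70 and 6.93, and Thrb, a thyroid hormone receptor gene, had 7.05 and 6.99 against 5.96 and 5.90. For these 4 genes the wild-type arrays were close to each other, within 0.33. Their day 0 differences, knockout minus the single wild-type array, were 1.74, 2.19, 0.11 and 0.69 in the same order. Fv1, a gene of retrovirus restriction, had 7.70 and 7.98 against 6.36 and 6.95, and Rsl1, a zinc finger gene, had 6.69 and 6.69 against 5.65 and 5.55. Slc7a11, the cystine transporter, had 9.72 and 9.46 against 8.10 and 8.69. Kmt2d, a histone methyltransferase, had 8.87 and 9.02 against 6.78 and 8.18, and Ccr9, a chemokine receptor, had 6.15 and 6.20 against 4.34 and 5.56. Star, a cholesterol carrier of steroid synthesis, was among the 10 genes with the smallest p, with 5.70 and 5.72 against 4.76 and 4.80. The limma adjusted p was 0.503 for Slit1 and Thrb and 0.801 for the others named here.

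Of 16 measured circadian clock genes, 7 were higher in knockout without overlap, 9 overlapped and 0 were lower, against 15.9% and 15.7% over all genes, with a median of 0.31 (0.43 and 0.21 against replicates 1 and 2). Nr1d1, the repressor REV-ERB alpha, had 10.35 and 10.39 in knockout and 9.25 and 9.84 in wild type. Per3 had 6.77 and 6.77 against 5.93 and 6.15, and Dbp, a clock output gene, had 7.50 and 7.28 against 6.89 and 6.81. The core genes Clock and Arntl overlapped, with Arntl at 7.94 and 7.74 against 7.83 and 7.96. The labels gave no hour of collection, and its part in these values was not tested.

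**Figure D4:**
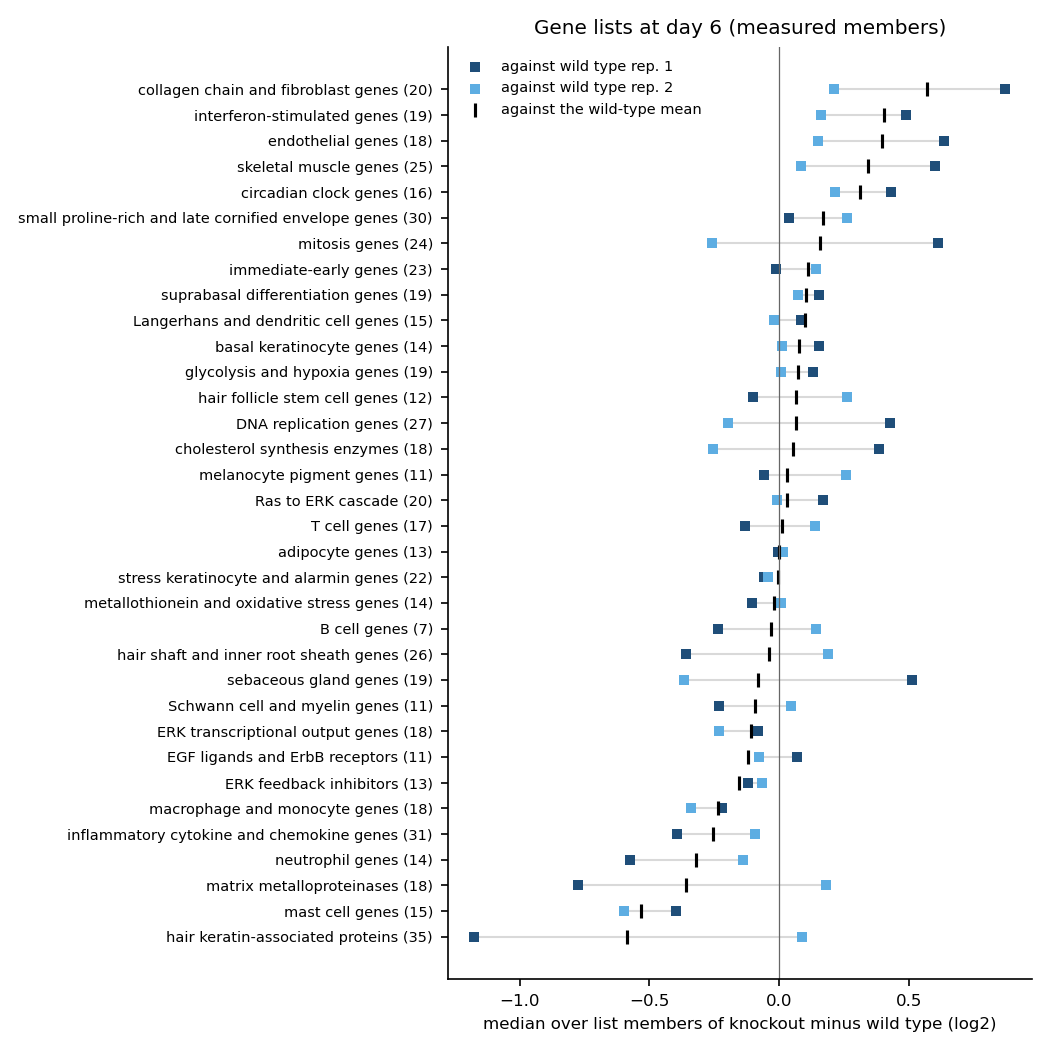
Median over the measured members of each gene list of knockout minus wild type at day 6 (log2): dark squares against wild-type replicate 1, light squares against replicate 2 and black ticks against their mean, with the number of members in brackets. Mast cell genes lie at -0.40 and -0.60, on the same side of 0, while mitosis genes lie at 0.61 and -0.26 and hair keratin-associated proteins at -1.18 and 0.09.

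Several groups lay between the wild-type arrays. Of 24 mitosis genes, both knockout arrays were above wild-type replicate 1 for 18 and below replicate 2 for 21, so the median was 0.61 against the first and -0.26 against the second. Mki67, the Ki-67 antigen of dividing cells, had 9.86 and 10.26 in knockout, 8.37 in replicate 1 and 9.89 in replicate 2, and Cenpe, a motor protein of mitosis, had 7.35 and 7.99 in knockout and 5.53 and 7.88 in wild type. Of 27 DNA replication genes, 17 were above replicate 1 and 19 below replicate 2 (medians 0.43 and -0.20). Of 18 cholesterol synthesis enzymes, 14 were above replicate 1 and 17 below replicate 2 (medians 0.38 and -0.25). Over all genes both knockout arrays were above replicate 1 for 33.9% and below replicate 2 for 26.4%. The direction of knockout against wild type in these groups is therefore set by which wild-type array is used.

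Hair genes lay the other way. Of 35 hair keratin-associated protein genes, whose products harden the hair shaft, both knockout arrays were below replicate 1 for 34 (44.8% over all genes), and above replicate 2 for 20 (39.0% over all genes) (medians -1.18 and 0.09). For 19 of the 35 both knockout arrays lay between the wild-type arrays (23.5% over all genes). Without overlap 4 were lower and 0 higher, against 15.7% and 15.9% over all genes. Krtap6-1 and Krtap8-1 were among the lower. Krtap6-1 had 3.58 and 3.42 in knockout, 7.59 in wild-type replicate 1 and 3.59 in replicate 2, all but the 7.59 at the level of absent signal (highest 4.25). Krtap8-1 had 4.77 and 4.90 in knockout, 8.58 in replicate 1 and 5.17 in replicate 2. The mean of this list was 4.87 and 4.79 in knockout, 6.34 in replicate 1 and 4.73 in replicate 2. Its mean was 10.62 in the wild-type array of day 0, against 4.65 and 4.58 in knockout at day 0. Many of these genes have near-identical copies, so a value may include the signal of relatives.

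**Figure D5:**
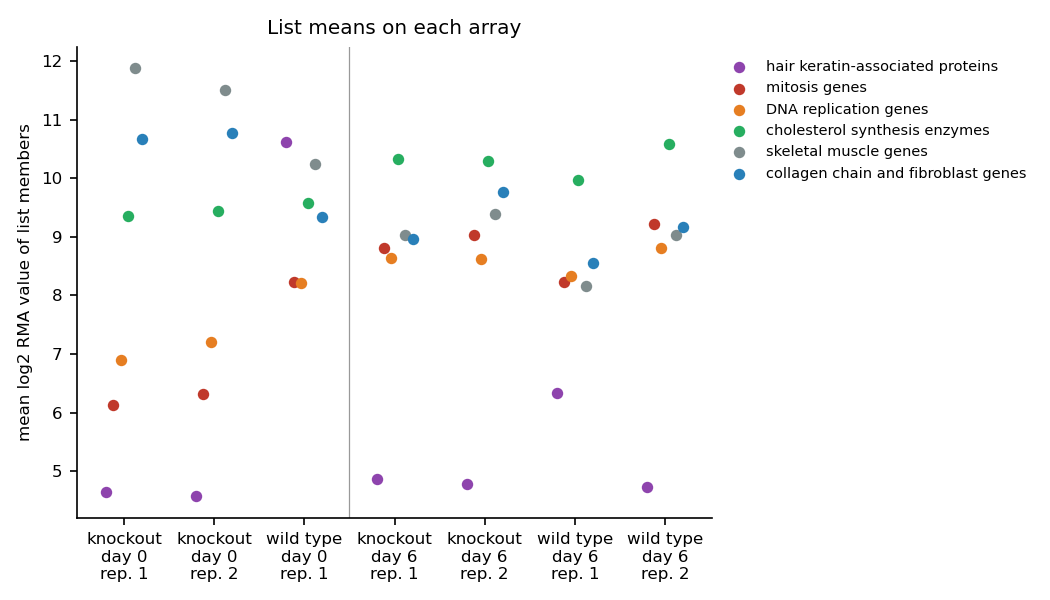
Mean log2 RMA value of the members of 6 gene lists on each of the 7 arrays, day 0 left and day 6 right of the line; points are shifted sideways by list so that they do not hide each other. At day 6 hair keratin-associated proteins stand at 6.34 in wild-type replicate 1 and at 4.73 to 4.87 on the other 3 arrays, and mitosis genes at 8.23 in that array and at 8.82 to 9.22 on the others.

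By the rule set for genes between the wild-type arrays, 0 genes had both knockout arrays at least 1 log2 unit from each wild-type array. The genes nearest to that rule are named here after their values were seen. Dusp10, a phosphatase of stress kinases, had 6.55 and 6.30 in knockout, 7.84 in wild-type replicate 1 and 5.40 in replicate 2. The differentiation genes Flg2 and Tmprss11f lay the same way, with 6.20 and 6.84 between 7.94 and 5.55 and with 8.31 and 7.73 between 10.13 and 7.10. Rrad, a small GTPase gene, lay the other way, with 7.66 and 7.80 between 6.56 and 8.73, as did the keratin gene Krt24, with 5.69 and 5.90 between 4.91 and 7.34. Mmp9 had 11.09 and 11.02 in knockout, 11.68 in replicate 1 and 10.32 in replicate 2. Of 18 matrix metalloproteinase and inhibitor genes, 3 were higher and 4 lower without overlap, against 15.9% and 15.7% over all genes. Their medians were -0.77 against replicate 1 and 0.18 against replicate 2.

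Of 30 Sprr and Lce genes, whose products build the cornified envelope, 12 were higher in knockout without overlap and 0 lower, against 15.9% and 15.7% over all genes, with a median of 0.17 (0.04 and 0.26 against replicates 1 and 2). Lce3f had 9.01 and 8.91 in knockout and 7.97 and 8.72 in wild type, and Lce1g had 6.48 and 6.47 against 6.18 and 5.95. Some of the 12 had small gaps between the nearest arrays of the genotypes, such as 0.048 for Sprr1a and 0.049 for Lce3c (log2). Members of these families are close relatives and may share probes, so the 12 may not be separate observations. Of 22 stress keratinocyte and alarmin genes, 4 were higher and 5 lower (median -0.01), and of 14 basal keratinocyte genes 6 were higher and 3 lower (median 0.08). Dst, a cytolinker of hemidesmosomes, had 7.87 and 8.12 against 6.59 and 7.32. Of 19 suprabasal genes 3 were higher and 1 lower (median 0.10). Hrnr, a filaggrin relative, had 12.04 and 12.40 against 11.29 and 11.51, and Krt1 had 11.91 and 12.28 against 9.49 in replicate 1 and 12.10 in replicate 2. Of 19 glycolysis and hypoxia genes 4 were higher and 2 lower (median 0.07).

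Stromal lists were higher against replicate 1 than against replicate 2. Counts in this paragraph are read against 15.9% higher and 15.7% lower without overlap over all genes. Of 20 collagen and fibroblast genes 5 were higher without overlap and 0 lower (median 0.57, and 0.87 and 0.21 against replicates 1 and 2), with Col6a3 at 9.52 and 10.43 in knockout and 8.97 and 9.44 in wild type. Of 18 endothelial genes 4 were higher and 1 lower (median 0.40), with Kdr, the receptor VEGFR2, at 7.24 and 8.68 against 6.59 and 7.11. In both lists knockout replicate 2 was the highest array, with list means of 9.77 and 8.60 against 8.96 and 7.85 in knockout replicate 1. Of 11 melanocyte genes 3 were higher and 0 lower, with medians of -0.06 and 0.26 against replicates 1 and 2. Pmel had 7.12 and 7.13 against 6.53 and 6.21. Of 19 sebaceous gland genes 1 was higher and 3 were lower, with medians of 0.51 and -0.37 against replicates 1 and 2, and their mean stood at 8.09 and 9.78 in knockout and 8.53 and 9.70 in wild type.

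The remaining lists are read against the shares over all genes, 15.9% higher and 15.7% lower without overlap. Of 19 interferon-stimulated genes 3 were higher and 0 lower (median 0.40), with Oas3, an antiviral enzyme, at 5.66 and 5.84 in knockout and 5.01 and 4.96 in wild type. The mean of the interferon list was 5.84 and 6.72 in knockout and 5.84 and 6.07 in wild type, so only knockout replicate 2 stood above both wild-type arrays. Of 14 metallothionein and oxidative stress genes 2 were higher and 3 lower (median -0.02), Slc7a11 and Hmox1 being the higher members. Of 11 Schwann cell and myelin genes 1 was higher and 3 were lower (median -0.09), led by Mal, a membrane protein also made in epithelia, at 9.87 and 9.27 against 10.69 and 10.38. Of 26 genes of the hair shaft and its inner sheath, 3 were higher and 2 lower, with medians of -0.36 and 0.19 against replicates 1 and 2. Of 12 hair follicle stem cell genes 2 were higher and 0 lower, among them Nfatc1, a transcription factor of quiescent stem cells, at 8.06 and 7.89 against 7.37 and 7.54. Of 13 adipocyte genes 1 (Car3) was higher and 0 lower. Of 7 B cell genes 1 (Cr2) was lower, and of 2 erythrocyte genes 1 (Alas2) was lower. Every list named here had 0 genes past the adjusted threshold by limma.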

How the data were processed

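RNA was extracted with an RNeasy kit, amplified with MessageAmp III, labelled with biotin and hybridised to Mouse Gene 1.0 ST arrays, per the labels. The deposited values are log2 expression values that the authors made by RMA; the submitters' processing notes name RMA and R 2.11.1; RMA settings and array batches are not given in the sources used here. Of 34760 probe sets, 21640 name 1 gene symbol; for each gene the probe set with the highest mean over 7 arrays was kept (19937 genes, 19855 matched to RefSeq by identifier). The number of arrays limits the precision.

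Knockout minus wild type at day 6 was tested with limma 3.58.1 in R 4.3.3, as a contrast of 4 group means over 7 arrays (3 residual degrees of freedom), two-sided, with Benjamini-Hochberg adjustment over all genes and a threshold of 0.05. The procedure was tested on simulated data. The members and the 38 gene lists (663 measured members of 750) were chosen with earlier results of these data known; 1 list is not reported here. No overlap means both knockout arrays on one side of both wild-type arrays. Named genes are the 15 higher and 15 lower with the largest gap between groups, among those 2-fold apart with a higher mean of 6 or more, the 10 with the smallest p, up to 8 in each direction with both knockout arrays at least 1 log2 unit from each wild-type array and between them (0 met this), Iqgap1 to Iqgap3, members of the lists with the smallest p, and markers that check a cell type; predicted genes and small RNAs are not named. Genes named outside this rule (Il1b, Tnf, Kit, Hdc and other list members shown for contrast) were chosen after their values were seen. Alternatives are other fits, filters, scalings, probe set choices and leaving out arrays.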

Additional observations from a re-analysis of the deposited data

Results flagged for a closer look

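For 10 of the genes named in the text the knockout difference at day 6 differed from that at day 0 by limma's test of the difference between days. Over all genes 619 of 19937 (3.10%) passed that test. It rests on the single wild-type array of day 0, which had Xist signal and a mean of 10.62 for hair keratin-associated proteins; the part of these in the differences was not tested. For Slc7a11 knockout minus wild type was 1.20 at day 6 and -1.89 at day 0, a difference of 3.08 ± 0.57 (SE, limma adjusted p = 0.0413). For Serpina12 it was -1.73 at day 6 and 1.28 at day 0, a difference of -3.01 ± 0.49 (SE, limma adjusted p = 0.0285). For Tmprss2 it was -1.39 and -2.90, so the difference was 1.51 ± 0.27 (SE, limma adjusted p = 0.036). For the tryptase gene Tpsb2 it was -1.02 and 0.59, a difference of -1.61 ± 0.26 (SE, limma adjusted p = 0.0266). For Star it was 0.93 and -1.26, a difference of 2.19 ± 0.25 (SE, limma adjusted p = 0.00983). For the pigment gene Pmel it was 0.76 and -4.59, a difference of 5.35 ± 0.33 (SE, limma adjusted p = 0.000828). The clock gene Nr1d1 had 0.82 and 3.24, a difference of -2.41 ± 0.36 (SE, limma adjusted p = 0.023). Nfatc1 had 0.52 and 2.5, a difference of -1.98 ± 0.25 (SE, limma adjusted p = 0.0139). The ERK output gene Fosl1 had -0.24 and 1.69, a difference of -1.93 ± 0.26 (SE, limma adjusted p = 0.0159). The scaffold gene Ksr1 had 0.42 and 2.12, a difference of -1.70 ± 0.28 (SE, limma adjusted p = 0.0275).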

How the results depend on the processing

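Limma called 0 genes in the fit described, with the 4 day 6 arrays alone, with a trend or robust moderation, with a filter on means under 6, with another choice of probe set, after centring or renewed quantile normalization, and with a term for the arrays with Xist signal. Over all 34760 probe sets it called 1, which is annotated to more than 1 gene, and 440 were 2-fold apart without overlap, against 116 genes; with the Xist term there were 46 such genes. Leaving out each array in turn gave 0 to 43 calls and 83 to 903 genes 2-fold apart without overlap. The 43 calls came without wild-type day 6 replicate 2, which leaves replicate 1 alone as wild type, a lone array assumed to vary like the other groups; without wild-type replicate 1 there were 0 calls and 83 genes. With the replicate block there were 0 calls and 1466 genes at an unadjusted p under 0.05, against 1182. The replicate differences of the genotypes correlated at 0.227 across genes, and with 2 pairs the numbers do not establish pairing. Without the 2 arrays with Xist signal, an alternative chosen after seeing the data, there were 0 calls and 83 genes 2-fold apart. Of 34 named genes followed through these settings, 33 kept their direction under all of them, and Iqgap2 did not. Most of the 34 were chosen by a gap between the arrays of the genotypes. Leaving out an array could not turn their direction, so this count is not a check of them. Of the 38 list medians, 15 kept their sign.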
